A study of Bos taurus with 18 samples.

Results

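The difference between bulls of medium-low and of high fertility was examined in the corpus, the middle segment of the epididymis. All arrays labelled as corpus were taken, 3 of medium-low and 3 of high fertility, which are 6 of the 18 arrays of the series. Every difference is medium-low minus high on a log2 scale, so a value of 1 is a 2-fold higher signal in the medium-low group. The series holds 1 array for each of the 3 segments, caput, corpus and cauda, from 6 Holstein bulls, 3 per fertility group. The bulls of both groups were sexually mature, 51 to 71 months old, untreated and of no stated genotype, and had been chosen for slaughter on the milk production of their daughters. Fertility was the share of cows that had not returned to service 56 days after a first insemination, from 282 to 486 inseminations per bull. The medium-low group is titled sub-fertile, and its bulls were fertile enough to be used for insemination, which limits it as a model of infertility. No value of fertility per bull is used here, so the samples are compared as 2 groups of 3.

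The epididymis is a long coiled duct in which sperm from the testis gain the ability to swim and to fertilize an egg. Its lining of principal, basal and clear cells, wrapped in smooth muscle and connective tissue with immune cells, secretes a different set of proteins in each segment. The corpus lies between the caput, where much of the secreted protein enters the lumen, and the cauda, where sperm are stored. Pieces of whole tissue were measured, so fewer cells of a type and less RNA per cell cannot be told apart in any value below.

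The corpus label was checked against segment genes, a list chosen with the segment differences of these arrays known. GDF3, which encodes a growth and differentiation factor, lay between 11.53 and 12.50 in the 6 corpus arrays, between 4.58 and 4.997 in the 6 caput arrays and between 4.54 and 5.33 in the 6 cauda arrays. ELF5, an epithelial transcription factor, lay between 10.76 and 11.17 in corpus, between 7.95 and 9.11 in caput and between 5.04 and 5.74 in cauda. The mean of 9 corpus genes was 11.60 to 11.89 in the corpus arrays of both fertility groups, and the mean of 12 cauda genes was 6.37 to 6.65. On these 2 lists all 6 arrays carried the gene pattern of their segment, which the choice of the lists made likely beforehand. The mean of 13 caput genes was less even. It was 7.96, 8.47 and 6.97 in medium-low corpus, against 7.23, 7.53 and 7.24 in high corpus, as described below. The medians of the corpus arrays lay between 7.33 and 7.39, and no detection call comes with the values, so low signals may be background. Pairs of corpus arrays correlated across probe sets at 0.987 to 0.991, except pairs with medium-low replicate 2, at 0.978 to 0.983. That array stood at least 2-fold above the median of the other 5 in 366 probe sets and below it in 156, against 59 to 120 above and 50 to 78 below for each of the other 5 arrays. The number of arrays, 3 against 3, limits the precision of every value.

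Few probe sets separated the fertility groups in the corpus. Of 26773 probe sets, 1 passed a limma adjusted p of 0.05, which is 0.00374% of those tested, and it was lower in the medium-low group. At an unadjusted p under 0.05 there were 1182 probe sets, 4.41% of those tested, of which 665 were higher, 2.48%, and 517 lower, 1.93%. The 3 arrays of one group all lay on 1 side of the 3 of the other for 3037 probe sets, 11.3%, of which 1517 were higher, 5.67%, and 1520 lower, 5.68%. The caput comparison gave 57 calls by the same rule, 0.213%, and the cauda comparison gave 3, 0.0112%. The median difference over all corpus probe sets was -0.0015 and the median standard error (SE) was 0.146. A difference of at least 2-fold was found in 42 higher and 15 lower probe sets, and the 3 medium-low arrays all lay above the 3 high ones in 21 of the higher, and all below them in 9 of the lower.

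The probe set that passed was that of CCDC196, a gene for a coiled-coil domain protein. CCDC196 stood at 4.25, 4.28 and 4.27 in the medium-low corpus arrays, against 5.79, 5.74 and 5.99 in the high corpus arrays. The medium-low arrays lay together and well below the lowest high array, with no overlap. The difference was -1.57 (SE 0.184, n = 3 each, limma adjusted p = 0.0109), a 2.97-fold lower signal. The medium-low level was low for the array, since 7.86% of all probe sets had a lower mean there, and 24.9% had a lower mean than the gene's in the high group. With no detection call, whether that level is above background was not tested. In the other segments of the same bulls the gene was lower too. Medium-low caput arrays were at 4.15, 4.50 and 4.13, against 6.54, 6.57 and 6.82 in high caput, a difference of -2.38 (limma adjusted p = 2.25e-05). Medium-low cauda arrays were at 4.05, 4.45 and 4.28, against 5.78, 6.64 and 6.502 in high cauda, a difference of -2.04 (limma adjusted p = 0.000364). The 3 segments come from the same 6 bulls and are not separate evidence on bulls. The corpus difference did not differ from that in caput or cauda past the threshold (limma adjusted p = 0.559 and 1 for the differences of 0.81 and 0.47).

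Genes annotated next to CCDC196 showed no difference of that size. GPHN, which encodes the scaffold protein gephyrin, was at 8.74, 8.73 and 8.73 in medium-low corpus, against 9.02, 8.90 and 8.96 in high corpus, a difference of -0.22 (limma adjusted p = 1). The transcription factor partner MAX differed by -0.12, the fucosyltransferase gene FUT8 by -0.15, LOC785763 by -0.16, the polarity gene PALS1 by -0.11 and GARIN2 by 0.24. GARIN2 was at 5.49, 7.78 and 5.77 in medium-low corpus, against 6.13, 6.00 and 6.20 in high corpus. Its higher mean thus rested on medium-low replicate 2, and medium-low replicates 1 and 3 lay below all high arrays. None of these 6 neighbours passed the threshold. The call for CCDC196 was also made in a fit of the 6 corpus arrays alone (limma adjusted p = 0.0252). Its difference stayed between -1.49 and -1.62 when any corpus array was left out, while the limma adjusted p lay between 0.0324 and 0.0923 and stayed under 0.05 only without medium-low replicate 3. It was 0.144 without the 6 caput arrays.

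**Figure D1:**
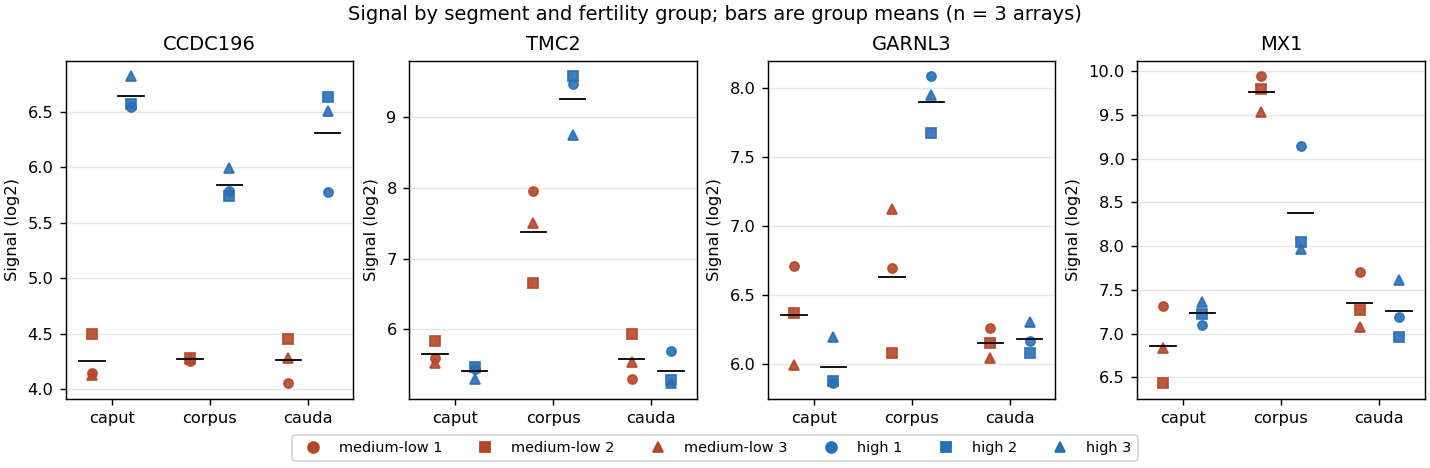
Log2 signal of CCDC196, TMC2, GARNL3 and MX1 in each of the 18 arrays, by segment on the horizontal axis, with medium-low bulls left of high bulls, 1 marker shape per replicate number and a bar at each mean of 3 arrays. CCDC196 is lower in medium-low bulls in all 3 segments, while TMC2 lies between 6.66 and 9.58 in corpus and between 5.24 and 5.93 in the other segments.

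Below CCDC196, the largest differences toward a lower signal belonged to genes that did not pass. TMC2, of the transmembrane channel-like family known from hair cells of the inner ear, was at 7.95, 6.66 and 7.51 in medium-low corpus, against 9.47, 9.58 and 8.74 in high corpus. All 3 medium-low arrays lay below all high arrays, and the difference was -1.89 (SE 0.281, limma adjusted p = 0.0983). It reached an adjusted p of 0.0449 without medium-low replicate 1, with a difference of -2.18, and lay between 0.0681 and 0.673 without any other corpus array. In a fit of the 6 corpus arrays alone the SE was 0.358 and the limma adjusted p 0.873. Without the 6 caput arrays the limma adjusted p was 0.449. In caput and cauda the gene stayed between 5.24 and 5.93 in all 12 arrays. The corpus difference of TMC2 minus its caput difference was -2.13 (limma adjusted p = 0.448), and minus its cauda difference -2.07 (limma adjusted p = 0.998).

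GARNL3, named for a GTPase-activating domain, was at 6.69, 6.08 and 7.12 in medium-low corpus, against 8.08, 7.68 and 7.95 in high corpus. The groups did not overlap, and the difference was -1.27 (SE 0.221, limma adjusted p = 0.367). Without medium-low replicate 3, which held the highest medium-low value, it was -1.51 with a limma adjusted p of 0.0324. This was the 1 of 19 alternatives in which GARNL3 passed. On leaving out each corpus array in turn the difference lay between -1.51 and -0.99. In the caput GARNL3 lay between 5.86 and 6.71, and in the cauda between 6.05 and 6.31. TSPAN1, a tetraspanin of epithelial membranes, was at 6.42, 6.47 and 7.60 in medium-low corpus, against 8.21, 9.99 and 7.83 in high corpus. Its difference of -1.85 (SE 0.846) rested partly on high replicate 2, without which it was -1.19. IL10, an anti-inflammatory cytokine, was at 6.40, 5.63 and 5.97 in medium-low corpus, against 7.02, 7.21 and 6.90 in high corpus, a difference of -1.04 (SE 0.362).

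The other 7 lower genes of the rule differed by -0.86 to -0.67. They were PKHD1, the fibrocystin gene of ducts and tubules, at -0.86, the transcription factor gene MYB at -0.72, VEPH1 at -0.71, the phosphatase gene PTPN18 at -0.70, the ephrin gene EFNA2 at -0.70, the olfactory receptor gene OR8B8 at -0.68 and LOC529488 at -0.67. MYB was at 6.49, 6.46 and 6.66 in medium-low corpus, against 7.93, 7.12 and 6.71 in high corpus, and its difference was -0.38 without high replicate 1. OR8B8 lay between 5.43 and 6.48 in the corpus arrays and between 4.64 and 5.24 in the other 12. None of these 7 passed the threshold (limma adjusted p = 0.533 to 1).

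Among the genes with a higher signal in medium-low corpus, 12 were named by the same rule and 0 passed. PRG4, which encodes the lubricating proteoglycan lubricin, had the largest difference, 1.49 (SE 0.466, limma adjusted p = 1). It was at 8.85, 9.58 and 7.84 in medium-low corpus, against 7.24, 7.0 and 7.54 in high corpus. MX1, IFI27, IFI44 and HERC6 are interferon-stimulated genes and are described with that group below. CCN3, a matricellular protein gene, was at 8.85, 9.98 and 8.93 in medium-low corpus, against 7.76, 7.80 and 8.79 in high corpus, a difference of 1.14 (SE 0.386). ABI3BP, a matrix protein gene, differed by 1.02, or 0.67 without high replicate 2, and LUM, the proteoglycan lumican, by 0.97. MIR2474, a microRNA gene, was at 8.998, 9.37 and 9.49 in medium-low corpus, against 8.52, 8.36 and 8.67 in high corpus, a difference of 0.77 (SE 0.212, limma adjusted p = 0.982).

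For some of these the difference was set by 1 or 2 arrays. SLC35F1, of a family of nucleotide sugar carriers, was at 7.32, 7.01 and 9.81 in medium-low corpus, against 6.73, 6.96 and 6.83 in high corpus. Its difference of 1.21 was 0.33 without medium-low replicate 3. CFB, complement factor B, was at 6.66, 9.15 and 7.17 in medium-low corpus, against 6.54, 6.58 and 6.44 in high corpus. Its difference of 1.14 was 0.39 without medium-low replicate 2. LOC100296742 was at 8.23, 8.53 and 6.61 in medium-low corpus, against 6.41, 6.60 and 6.37 in high corpus, a difference of 1.33, and it lay between 9.94 and 13.06 in the caput.

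**Figure D2:**
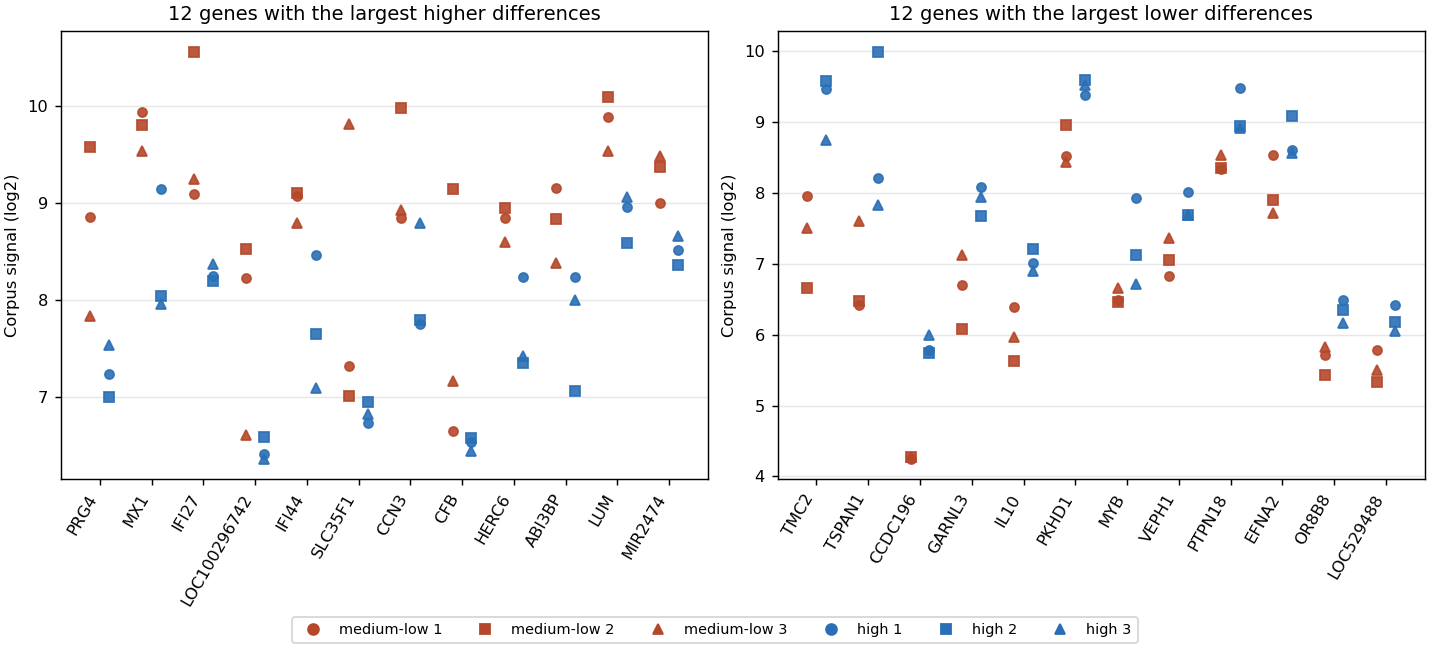
Log2 signal in the 6 corpus arrays of the 12 genes with the largest higher differences (left panel) and the 12 with the largest lower differences (right panel) that meet the naming rule, medium-low arrays left of high arrays, 1 marker shape per replicate number. The groups do not overlap for any of the 24 genes, which the rule required, and CCDC196 is the 1 that passed the adjusted threshold.

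Interferon-stimulated genes stood higher in medium-low corpus as a group. These genes are switched on by interferons through the STAT and IRF factors and encode antiviral enzymes, GTPases and ubiquitin-like modifiers. Of 40 listed genes 31 were measured, 29 with a higher and 2 with a lower mean. None passed the adjusted threshold. At an unadjusted p under 0.05, 15 were higher and 0 lower, which is 48.4% of the list, where 2.48% of all probe sets were higher. The 3 medium-low arrays all lay above the 3 high arrays for 13 of them, 41.9%, where this held for 5.67% of all probe sets. The median difference of the list was 0.38, against -0.0015 over all probe sets. The list was chosen with results of these arrays known, so its counts are a description.

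The antiviral GTPase gene MX1 was at 9.94, 9.80 and 9.53 in medium-low corpus, against 9.14, 8.04 and 7.96 in high corpus. The groups did not overlap, and the difference was 1.38 (SE 0.292, limma adjusted p = 0.578). IFI27, an interferon-induced protein gene, was at 9.09, 10.56 and 9.24 in medium-low corpus, against 8.24, 8.19 and 8.37 in high corpus, a difference of 1.36 (SE 0.289, limma adjusted p = 0.578). It was 0.90 without medium-low replicate 2, which held the highest value. IFI44, a further interferon-induced gene, was at 9.07, 9.10 and 8.80 in medium-low corpus, against 8.47, 7.66 and 7.09 in high corpus, a difference of 1.25 (SE 0.39). HERC6, of a family of ubiquitin ligases, was at 8.85, 8.95 and 8.60 in medium-low corpus, against 8.23, 7.36 and 7.42 in high corpus, a difference of 1.13 (SE 0.252, limma adjusted p = 0.589).

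Further members had smaller differences. EIF2AK2, the kinase that senses double-stranded RNA, was at 9.42, 9.12 and 9.21 in medium-low corpus, against 8.87, 8.54 and 8.49 in high corpus, a difference of 0.61 (limma adjusted p = 0.538). IRF9, a subunit of the interferon-activated factor ISGF3, was at 8.43, 8.74 and 8.37 in medium-low corpus, against 8.10, 7.91 and 7.73 in high corpus, a difference of 0.60. ZNFX1, a helicase gene, differed by 0.43 and IFIT5, which binds viral RNA, by 0.42, both without overlap. USP18, the protease that removes ISG15, differed by 0.73, DTX3L, a ubiquitin ligase, by 0.25 and UBA7, the enzyme that activates ISG15, by 0.48. None of these passed the threshold.

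Other members differed little. ISG15, the ubiquitin-like modifier, was at 6.06, 6.20 and 5.82 in medium-low corpus, against 5.89, 5.78 and 5.99 in high corpus, a difference of 0.14. STAT2 differed by 0.02, IFIT2 by 0.02, IFIH1 by 0.04, TRIM25 by -0.04 and ISG20 by -0.05. For IFIT2, between 3.80 and 4.26 in all 6 arrays, the signal is at the low end of the array.

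The 3 high arrays were not alike for these genes. High replicate 1 held the highest of the 3 high values in 21 of the 31 genes. OAS1Y, a 2′-5′ oligoadenylate synthetase gene, was at 10.48, 10.98 and 10.19 in medium-low corpus, against 10.27, 8.60 and 8.55 in high corpus, so that high replicate 1 lay among the medium-low arrays. Its difference of 1.41 was the largest of the list, with overlap. High replicate 1 also lay among the medium-low arrays for IFI6, at 12.34, 12.77 and 12.80 in medium-low corpus, against 12.43, 11.76 and 11.38 in high corpus. The mean over the 31 genes was 8.25, 8.39 and 8.17 in medium-low corpus, against 8.08, 7.65 and 7.68 in high corpus. All 3 medium-low arrays lay above high replicates 2 and 3 in 23 genes and above high replicate 1 in 13. Without 1 corpus array at a time, 10 to 17 members were higher at an unadjusted p under 0.05, the fewest without high replicate 3 and the most without high replicate 1, and the median was 0.25 to 0.51. The count over all probe sets at that level, in either direction, was 1182 with all arrays. It was 1582 without high replicate 3 and 889 without high replicate 1.

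**Figure D3:**
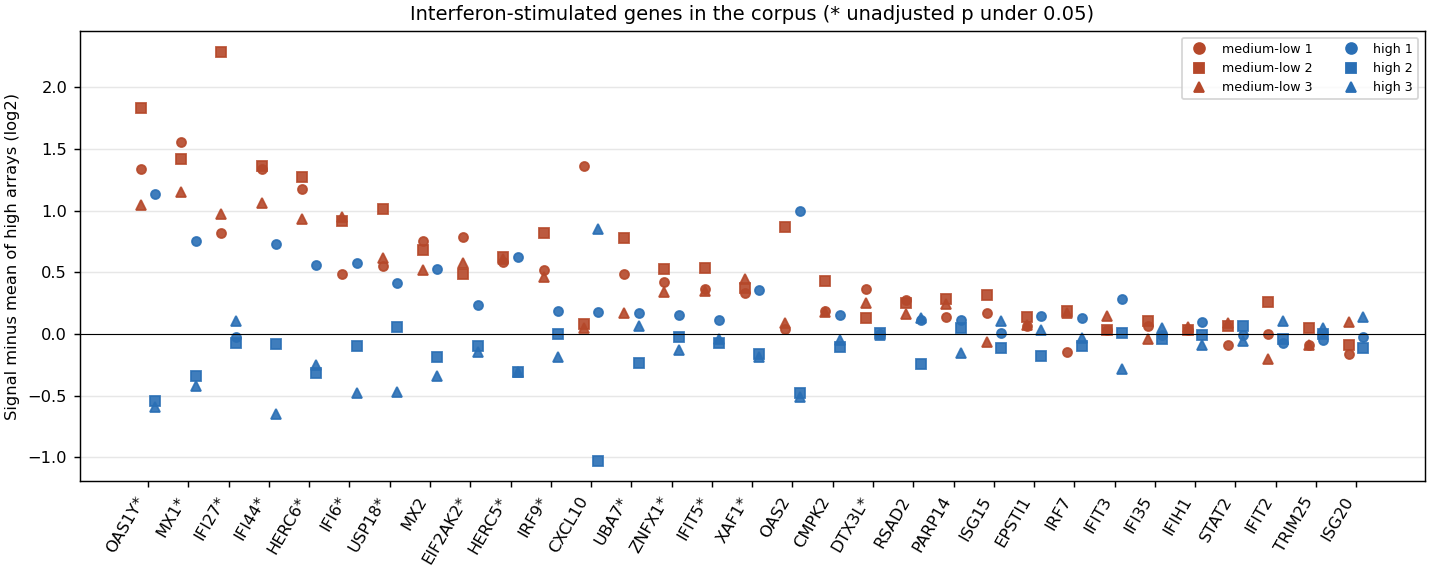
Log2 signal of 31 interferon-stimulated genes in the 6 corpus arrays, each minus the mean of the 3 high arrays, ordered by the difference, with medium-low arrays left of high arrays, 1 marker shape per replicate number and a star for an unadjusted p under 0.05. The 15 starred genes are all higher in medium-low corpus, and high replicate 1 holds the highest of the 3 high values in 21 of the 31.

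In the other segments of the same bulls the list showed no such difference. Its mean was 7.49, 7.26 and 7.57 in medium-low caput, against 7.52, 7.49 and 7.67 in high caput, and 7.73, 7.61 and 7.46 in medium-low cauda, against 7.60, 7.52 and 7.78 in high cauda. The median difference was -0.08 in the caput and -0.03 in the cauda. At an unadjusted p under 0.05, 1 member was higher and 5 lower in the caput, where 9.49% of all probe sets were higher and 11.4% lower, and 0 were higher and 1 lower in the cauda, where 3.31% of all probe sets were higher and 2.5% lower. MX1 was 1.75 further apart in the corpus than in the caput and 1.28 further than in the cauda, and neither of these differences passed (limma adjusted p = 0.559 and 1). For EIF2AK2 the caput difference was -0.25 and the cauda difference 0.09. No member passed the threshold in the test of the corpus difference against that of another segment.

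Markers of immune cells were set beside this list. The mean of 29 macrophage and MHC class II genes was 8.15, 8.04 and 8.13 in medium-low corpus, against 8.08, 7.93 and 7.99 in high corpus, with 23 higher and 6 lower members, 0 of them at an unadjusted p under 0.05. The mean of 35 T, NK and B cell genes was 6.55, 6.35 and 6.56 in medium-low corpus, against 6.63, 6.44 and 6.501 in high corpus, with 13 higher and 22 lower members. The helper T cell receptor gene CD4 was the 1 of these at an unadjusted p under 0.05. That is 2.86% of the list, close to the 2.48% of all probe sets that were higher. CD4 was at 6.12, 5.93 and 6.20 in medium-low corpus, against 5.72, 5.73 and 5.71 in high corpus, opposite in direction to the list's median of -0.05. In the innate defence list, 4 of 47 genes were higher and 1 lower at that level, which is 8.51% and 2.13%, where 2.48% of all probe sets were higher and 1.93% lower. SAA3, an acute phase protein gene, was at 7.35, 7.31 and 7.50 in medium-low corpus, against 6.63, 7.07 and 6.85 in high corpus, a difference of 0.54 (limma adjusted p = 1). The part of immune cells in the interferon-stimulated result was not tested.

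Connective tissue genes were higher in the mean of medium-low corpus, with a wide spread between arrays. Of 39 fibroblast and matrix genes, all measured, 37 had a higher and 2 a lower mean, with a median of 0.35. At an unadjusted p under 0.05, 3 were higher, 7.69%, where 2.48% of all probe sets were, and 0 lower, and 0 passed the adjusted threshold. LUM was at 9.89, 10.09 and 9.53 in medium-low corpus, against 8.96, 8.58 and 9.06 in high corpus. SFRP4, a secreted WNT antagonist, was at 7.72, 7.83 and 7.15 in medium-low corpus, against 6.82, 6.92 and 7.12 in high corpus. FN1, fibronectin, was at 10.20, 11.20 and 9.64 in medium-low corpus, against 9.77, 9.42 and 9.83 in high corpus, with overlap.

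The list followed single arrays more than the groups. Its mean was 9.25, 9.68 and 8.77 in medium-low corpus, against 8.80, 8.61 and 9.16 in high corpus, so that medium-low replicate 3 lay below 2 of the high arrays. Medium-low replicate 2 held the highest of the 6 values in 34 of the 39 genes. Without it the median was 0.14 and 0 members had an unadjusted p under 0.05. Without medium-low replicate 3 the median was 0.55 with 14 such members, and without high replicate 3 it was 0.47 with 9. The count over all probe sets, in either direction, was 1182 with all arrays. It was 884 without medium-low replicate 2, 1590 without medium-low replicate 3 and 1582 without high replicate 3. Smooth muscle genes, the other main part of the duct wall, averaged 9.73, 9.89 and 9.51 in medium-low corpus, against 9.72, 9.57 and 9.92 in high corpus. Of their 25 members, 6 were higher and 19 lower, none at an unadjusted p under 0.05, and their median of -0.04 was 0.07 without medium-low replicate 3 and 0.08 without high replicate 3.

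Transcripts of spermatids and sperm were high in 1 array. The mean of 66 such genes was 6.16, 7.15 and 6.25 in medium-low corpus, against 6.31, 6.26 and 6.21 in high corpus, so that medium-low replicate 2 stood above the other 5. That array held the highest value in 55 of the 66 genes, and 22 were at least 2-fold above the median of the others. SMCP, a protein of the sperm mitochondrial capsule, and CRISP2, of the sperm acrosome, were picked after their values were seen. SMCP was at 6.58, 9.92 and 6.83 in medium-low corpus, against 7.39, 6.76 and 6.96 in high corpus. CRISP2 was at 6.79, 9.86 and 6.84 in medium-low corpus, against 7.31, 7.07 and 6.57 in high corpus. The list's median difference of 0.23 was -0.02 without that array. Of the 31 interferon-stimulated genes, 12 were higher at an unadjusted p under 0.05 without it. With medium-low replicate 2 and high replicate 1 both left out, a choice made after seeing the data, 15 were. Over all probe sets, in either direction, 884 and 742 had such a p in these settings, against 1182 with all arrays.

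Genes of the caput, the segment upstream, differed among the corpus arrays of medium-low bulls. GPX5, a glutathione peroxidase secreted by the caput, was at 9.97, 10.84 and 6.39 in medium-low corpus, against 6.95, 6.35 and 6.95 in high corpus. Medium-low replicates 1 and 2 stood far above the other 4 arrays, and replicate 3 lay among the high arrays. The difference was 2.32 (SE 0.843, limma adjusted p = 1). Without medium-low replicate 2 it was 1.43, and without medium-low replicate 3 it was 3.66 with a limma adjusted p of 0.0487. LCN6, an epididymal lipocalin, was at 9.44, 9.85 and 7.67 in medium-low corpus, against 8.39, 7.56 and 7.59 in high corpus, a difference of 1.14 (SE 0.458). It was 0.71 without medium-low replicate 2 and 1.80 without medium-low replicate 3. CST11, a secreted cystatin, was at 9.15, 9.17 and 6.15 in medium-low corpus, against 6.28, 6.47 and 5.83 in high corpus. LCN9, a further lipocalin, was at 8.21, 7.94 and 6.56 in medium-low corpus, against 6.52, 6.17 and 6.46 in high corpus. In each of these 4 genes replicates 1 and 2 of medium-low corpus were the 2 highest of the 6 arrays.

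Not every caput gene had that order. RNASE10, a secreted protein of the ribonuclease A family, was at 6.83, 8.14 and 6.19 in medium-low corpus, against 6.73, 9.46 and 6.40 in high corpus, with the highest value in high replicate 2. GPX6 lay between 5.71 and 5.99 in all 6 arrays and SLC34A2, a phosphate transporter gene, between 6.20 and 6.47. The mean of 13 measured caput genes was 7.96, 8.47 and 6.97 in medium-low corpus, against 7.23, 7.53 and 7.24 in high corpus. It was 10.89 to 12.21 in the 6 caput arrays and 6.21 to 6.73 in the 6 cauda arrays. The list mean of every corpus array was below that of every caput array. GPX5 lay between 13.37 and 14.06 in the caput and LCN6 between 12.51 and 14.03, above all corpus arrays. The caput ranges of CST11, 7.55 to 13.81, and LCN9, 6.18 to 13.80, overlapped the corpus values. CST11 was at 13.81, 13.75 and 8.36 in medium-low caput, against 8.53, 7.55 and 8.05 in high caput. For this gene medium-low replicates 1 and 2 thus stood apart in the caput too. GPX5 had no such split there, at 14.06, 13.96 and 13.37 in medium-low caput, against 13.54, 13.38 and 13.67 in high caput. The part that the place of dissection has in these values was not tested.

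**Figure D4:**
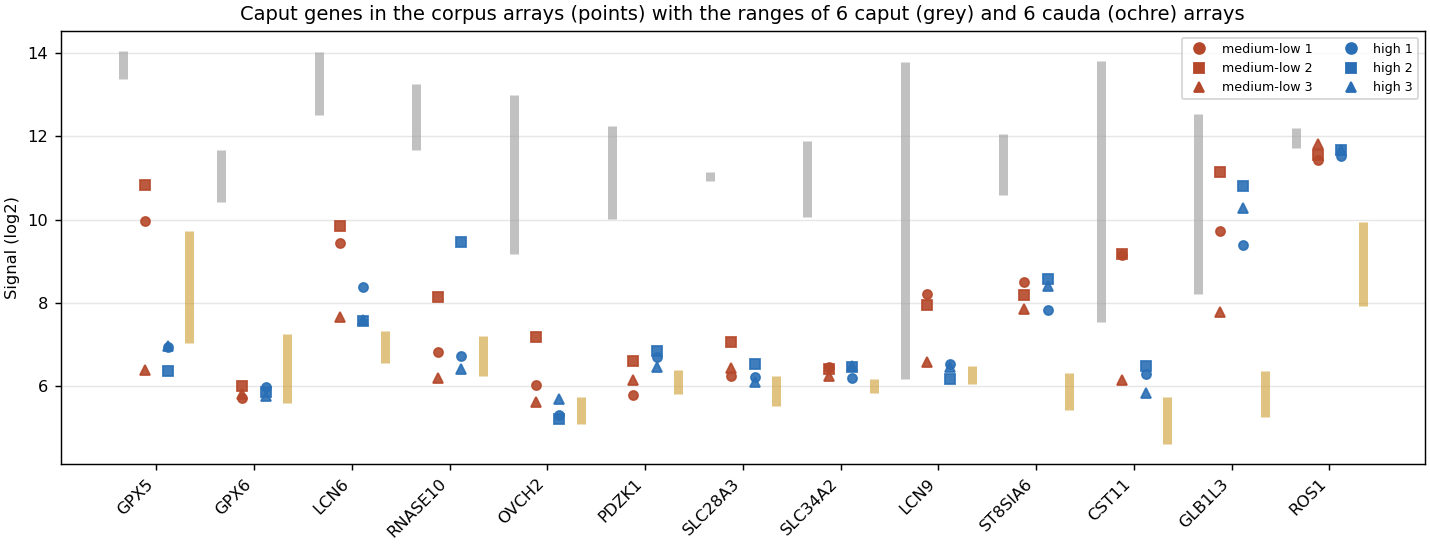
Log2 signal of 13 caput genes in the 6 corpus arrays (points, medium-low left of high, 1 marker shape per replicate number), with the range of the 6 caput arrays in grey and of the 6 cauda arrays in ochre. For GPX5, LCN6, LCN9 and CST11 medium-low replicates 1 and 2 lie above the other 4 corpus arrays, while GPX6 and SLC34A2 lie at the same low level in all 6.

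Lipocalins, carriers of small hydrophobic molecules in the duct fluid, were higher in the mean for 7 of 7 measured genes, with a median of 0.40. Their mean was 8.92, 8.94 and 8.33 in medium-low corpus, against 8.27, 8.02 and 8.21 in high corpus. Medium-low replicate 3 thus lay close to high replicate 1. At an unadjusted p under 0.05, LCN6 alone was higher, 14.3% of the list, where 2.48% of all probe sets were, and none passed. PTGDS, prostaglandin D synthase, was at 12.71, 12.38 and 13.13 in medium-low corpus, against 12.25, 12.14 and 12.31 in high corpus, a difference of 0.50 without overlap. DEFB7, of the antimicrobial beta-defensins, was at 9.55, 9.30 and 9.12 in medium-low corpus, against 10.57, 9.69 and 10.62 in high corpus, a difference of -0.97 (SE 0.464). The other 15 measured beta-defensins had no unadjusted p under 0.05 either, and the list's median was 0.05. Of the 16 measured, 10 were higher and 6 lower in the mean, with differences from -0.97, that of DEFB7, to 1.09.

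Hormone and antioxidant genes differed singly. ESR2, an estrogen receptor gene, was at 9.78, 9.82 and 10.16 in medium-low corpus, against 10.39, 10.29 and 10.44 in high corpus, a difference of -0.45 (SE 0.164, limma adjusted p = 1). It was the 1 of 25 androgen and steroid pathway genes at an unadjusted p under 0.05, which is 4% of the list, where 1.93% of all probe sets were lower. GPX1, a cytosolic glutathione peroxidase, was at 10.15, 10.14 and 10.67 in medium-low corpus, against 9.63, 9.99 and 9.88 in high corpus, a difference of 0.49 that was 0.31 without medium-low replicate 3. SLC7A11, a cystine transporter gene that feeds glutathione synthesis, was at 9.79, 8.94 and 10.42 in medium-low corpus, against 10.35, 10.47 and 10.40 in high corpus, with overlap. Its difference of -0.69 was -0.31 without medium-low replicate 2 and -1.04 without medium-low replicate 3. CYP51A1, an enzyme of cholesterol synthesis, was at 6.57, 6.74 and 6.26 in medium-low corpus, against 6.07, 5.72 and 5.82 in high corpus, a difference of 0.66.

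Respiratory chain and cell cycle genes were mostly lower in the mean. Of 67 nuclear genes of the respiratory chain 54 had a lower and 13 a higher mean, with a median of -0.08. At an unadjusted p under 0.05, 4 were lower, 5.97%, where 1.93% of all probe sets were. These were NDUFC1, NDUFA13, NDUFA11 and NDUFB11, subunits of complex I, with differences of -0.27, -0.24, -0.25 and -0.18. The list mean was 9.63, 9.52 and 9.71 in medium-low corpus, against 9.73, 9.72 and 9.68 in high corpus, and medium-low replicate 2 held the lowest value. Without it the list median was -0.03 with 1 such member, and NDUFA11 differed by -0.12. Without medium-low replicate 3 there were 10 such members, and without high replicate 1 or 2 there was 1. Over all probe sets, in either direction, 884 had such a p without medium-low replicate 2 and 1590 without medium-low replicate 3. There were 889 without high replicate 1 and 867 without high replicate 2, against 1182 with all arrays. Of 35 cell cycle genes 29 were lower in the mean, with a median of -0.14 and 0 at an unadjusted p under 0.05. That median was -0.05 without high replicate 2 and -0.24 without medium-low replicate 1 or high replicate 3. The mitotic kinase gene CDK1 was at 7.20, 6.47 and 6.79 in medium-low corpus, against 7.27, 7.20 and 6.998 in high corpus.

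Markers of the epithelium itself were close between the groups. The mean of 16 epithelial genes was 9.82, 9.76 and 10.00 in medium-low corpus, against 9.82, 9.88 and 9.84 in high corpus, with a median difference of 0.0033. The proton pump genes of clear cells averaged 7.79, 7.73 and 7.80 in medium-low corpus, against 7.72, 7.79 and 7.80 in high corpus. For basal cells the means were 8.73, 8.71 and 8.71 in medium-low corpus, against 8.72, 8.85 and 8.63 in high corpus. Of 15 basal cell genes 8 were higher and 7 lower in the mean, with a median of 0.05. KRT15, a basal keratin gene, was the 1 of these at an unadjusted p under 0.05. That is 6.67% of the list, where 1.93% of all probe sets were lower. It was at 8.07, 7.80 and 7.91 in medium-low corpus, against 8.36, 8.47 and 8.02 in high corpus, a difference of -0.36. Over all 43 lists the median difference was within 0.15 of 0 in 38 and above 0.15 in 5. The share of members that were higher at an unadjusted p under 0.05 was 15.4% or less in every list other than the interferon-stimulated one.

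**Figure D5:**
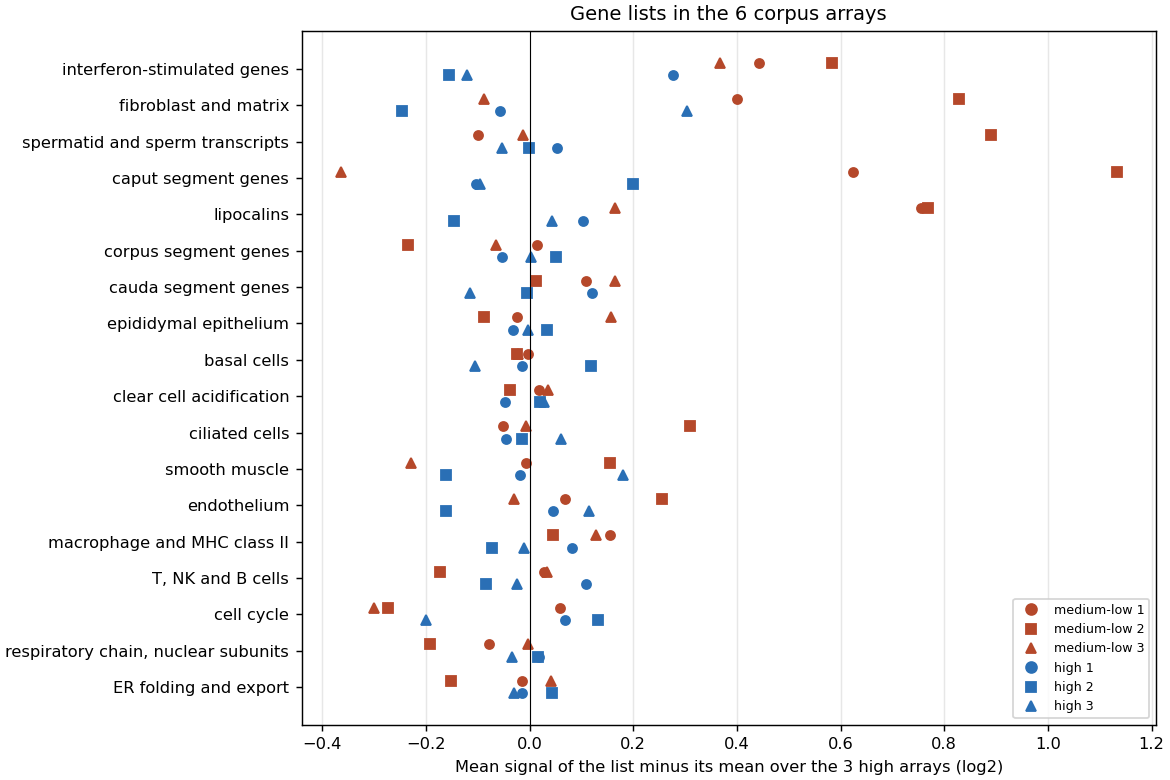
Mean log2 signal of 18 gene lists in the 6 corpus arrays, each minus the mean of the 3 high arrays, with medium-low arrays above high arrays and 1 marker shape per replicate number. For interferon-stimulated genes and lipocalins all 3 medium-low arrays lie to the right of all high arrays. For lipocalins medium-low replicate 3 lies close to high replicate 1, and medium-low replicates 1 and 2 stand apart. For fibroblast, spermatid and caput genes 1 or 2 medium-low arrays stand apart from the rest.

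Whether the fertility difference in the corpus differed from that in the other segments was tested directly for every probe set. Against the caput, 1 probe set passed, 0.00374% of those tested, and 2293 had an unadjusted p under 0.05, 8.56%. Against the cauda, 0 passed by limma, with 829 at an unadjusted p under 0.05, 3.1%. The 1 probe set, 12708857, carries no gene symbol in the platform table. It was at 5.57, 5.07 and 5.47 in medium-low corpus, against 4.97, 5.04 and 4.85 in high corpus, a difference of 0.41. In the caput it was at 5.49, 5.92 and 6.11 in medium-low arrays, against 9.16, 8.99 and 8.85 in high arrays, a difference of -3.16. The high caput arrays alone stood above the low level seen in the other groups, and in the cauda the difference was 0.14.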

How the data were processed

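Each array has a log2 signal per probe set, which the authors deposited after RMA normalization, per the submitters' processing notes. The notes also list Affymetrix Expression Console and Partek 6.5, with no role given. Per the labels' protocols, 200 ng of column-purified, DNase-treated total RNA per sample was labelled with biotin. No detection calls are used here. Of 26773 probe sets, 18457 name 1 gene, 688 several and 7628 none in the platform table. Of the 1-gene probe sets 17996 matched the RefSeq bovine gene table, which changed 0 symbols.

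All 18 arrays entered 1 limma 3.58.1 model (R 4.3.3) of 6 group means with empirical Bayes moderation. The groups share 1 estimate of the spread, which leaves 12 residual degrees of freedom. No probe set was removed and no further normalization was applied. Benjamini-Hochberg adjustment ran across all 26773 probe sets, with a threshold of 0.05. The fertility difference in the corpus was also set against that in caput and cauda as interaction contrasts. The model was tested on simulated data before use. Each list gene is represented by its brightest probe set. The 43 lists hold 1386 entries, of which 1192 were measured.

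Named genes are, per direction, the 12 largest differences among 1-gene probe sets past the threshold without overlap, filled up from non-overlapping ones whose unadjusted p was under 0.05. Up to 4 members with the smallest p per described list and every measured segment gene were added. Other members are named to complete a list's account and were chosen after their values were seen. The members and lists were chosen with earlier results of these data known. The labels give 3 bulls per group, and equal replicate numbers do not pair bulls of different fertility. Deviations of same-numbered corpus arrays of the 2 groups correlated at -0.186 to -0.0926 (3 pairs), so the main model did not use the numbers as pairs. Alternatives changed the filter on dim probe sets, the scaling, the array weights, the prior, the arrays fitted, the replicate block, the threshold and the arrays left out.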

Additional observations from a re-analysis of the deposited data

Results flagged for a closer look

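The fertility difference of probe set 12708857, which carries no gene symbol in the platform table, was 3.58 higher in the corpus than in the caput (SE 0.228, limma adjusted p = 3.38e-06), by the test of the difference between segments. In medium-low corpus it was at 5.57, 5.07 and 5.47, against 4.97, 5.04 and 4.85 in high corpus. In medium-low caput it was at 5.49, 5.92 and 6.11, against 9.16, 8.99 and 8.85 in high caput. The corpus difference alone was 0.41 and did not pass (limma adjusted p = 1).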

How the results depend on the processing

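The corpus comparison gave 1 call, CCDC196, as deposited and under the filter on dim probe sets, array medians subtracted, quantile and cyclic loess normalization, array weights, a trended prior, 1 probe set per gene and the corpus arrays alone. It gave 0 calls without the caput arrays and 35 (22 higher, 13 lower) with an unadjusted p under 0.05 and at least a 2-fold difference. Leaving out each corpus array in turn gave 0 to 7 calls. The 1 call without medium-low replicate 1 was TMC2, and the 7 without medium-low replicate 3 included CCDC196, GARNL3 and GPX5. Leaving out medium-low replicate 2 or any of the 3 high arrays gave 0. The test of corpus against caput gave 3 calls with the dim filter, medians subtracted, quantile or cyclic loess normalization, 1893 with array weights, 0 with 1 probe set per gene, which drops the unnamed probe set, and 627 with the unadjusted rule. Leaving out each array gave 1 to 1. Corpus against cauda gave 70 calls with the unadjusted rule and 0 to 0 on leaving out each array. Without both medium-low replicate 2 and high replicate 1, a choice made after seeing the data, THBS4 was the 1 call in the corpus and against cauda there was 1. The cause of these moves was not tested, except as stated.

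With the replicate number as a fixed replicate block, the corpus comparison gave 1 call (CCDC196, limma adjusted p = 0.00612), corpus against caput 1 and corpus against cauda 0. This block joins medium-low and high bulls of the same number, which are different bulls, so its p-values have no pairing behind them. With a random replicate block within each fertility group (correlation 0.156) the counts were 1, 3 and 0. Of 1155 recomputed differences of 61 genes, 0 changed sign and 15, over 4 genes, had an adjusted p under 0.05. The 61 genes were chosen for an unadjusted p under 0.05 in these same arrays. Several alternatives change the standard error or the threshold and leave the difference as it was. The count of sign changes was therefore largely set in advance. The number of arrays and the lack of detection calls limit what can be seen.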

Other observations

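Complement and sensor genes outside the named ones were picked after their values were seen, and none passed the threshold. C7, a component of the membrane attack complex, was at 10.61, 10.70 and 10.04 in medium-low corpus, against 9.98, 9.55 and 9.89 in high corpus, a difference of 0.64, and its difference was 0.51 in the caput and 0.68 in the cauda. RIGI, a sensor of viral RNA, was at 8.16, 8.16 and 8.08 in medium-low corpus, against 7.83, 7.49 and 7.24 in high corpus, a difference of 0.61, and its difference was -0.58 in the caput (limma adjusted p = 0.109) and -0.25 in the cauda. Of 32 genes of ciliated cells 24 had a higher mean in medium-low corpus, with a median of 0.10. Their mean was 6.48, 6.85 and 6.53 in medium-low corpus, against 6.49, 6.52 and 6.60 in high corpus, so that medium-low replicate 2 stood above the other 5, and without it the median was -0.0017 with 1 member at an unadjusted p under 0.05. With an unadjusted p under 0.05, 3 were higher, 9.38%, where 2.48% of all probe sets were, and they were STOML3 at 0.25, or 0.15 without medium-low replicate 2, DNAI1, a dynein chain gene, at 0.35 and ODAD2, a dynein docking gene, at 0.34. Without medium-low replicate 2, 884 of all probe sets had such a p in either direction, against 1182 with all arrays. Of 47 genes of protein folding and export 33 had a lower mean, with a median of -0.05. Their mean was 10.61, 10.48 and 10.67 in medium-low corpus, against 10.61, 10.67 and 10.60 in high corpus. Medium-low replicate 2 lay below all high arrays in 33 of the 47, and the median was 0.0081 without it.

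Some of the widest ranges among the 6 corpus arrays were found in the genes below, picked after their values were seen. A probe set shared by OAS1Z and OAS1X was at 5.31, 12.38 and 4.86 in medium-low corpus, against 5.14, 9.30 and 5.07 in high corpus. In the other segments its highest value within each fertility group was again in replicate 2, at 9.05 in medium-low caput, against 6.27 in high caput, and at 9.36 in medium-low cauda, against 8.36 in high cauda. A BOLA probe set, of the bovine MHC, was at 11.43, 10.97 and 11.92 in medium-low corpus, against 7.03, 9.50 and 11.10 in high corpus. In the caput it was at 10.59, 10.14 and 12.09 in medium-low bulls, against 6.87, 9.43 and 11.76 in high bulls. In the cauda it was at 11.63, 11.40 and 11.97 in medium-low bulls, against 7.02, 9.32 and 11.38 in high bulls, without overlap.

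HSFY2, a Y-linked gene of the heat shock factor family, was read by 5 probe sets. Of these, 12901752 and 12901774 had the same values in all 18 arrays and are not separate readings. In medium-low replicate 2 these lay between 8.63 and 10.0, in high replicate 1 between 7.264 and 8.45, and in the other 4 corpus arrays between 3.62 and 5.78. The other segments had a different order. HSFY2 probe set 12901752 was at 3.94, 7.47 and 6.33 in medium-low caput, against 6.87, 6.09 and 5.57 in high caput. In the cauda it was at 3.65, 8.50 and 3.84 in medium-low bulls, against 7.31, 7.24 and 6.24 in high bulls. ZNF280BY, a further Y-linked gene, was at 4.99, 10.08 and 5.54 in medium-low corpus, against 8.26, 5.60 and 5.46 in high corpus. Within a fertility group, deviations of arrays with the same replicate number in different segments correlated across probe sets at 0.0706 to 0.55 (18 pairs), and those with different numbers at -0.39 to 0.114 (36 pairs). Whether equal numbers mean the same bull is not stated in the labels.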
